A study of Danio rerio with 6 samples.

Results

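The transcripts described are those of 10 regulators of red blood cells and thrombocytes: gata1a, klf1, tal1, lmo2, gfi1b, nfe2, zfpm1, hemgn, epor and fli1a. They were chosen by name, with earlier results of the same data known. Each was matched to its Ensembl gene, which gave 10 of the 32105 genes of the count table. RNA was sequenced from cd41-positive cells sorted from zebrafish embryos at 40 hours post fertilization. The groups were 3 libraries labelled ddx41 mutant and 3 labelled wildtype, from a study whose title calls the controls siblings. All 6 libraries carry cd41gfp in their titles, a reporter for the integrin gene itga2b, which marks thrombocytes and blood stem and progenitor cells. DDX41 belongs to the DEAD-box RNA helicases, and in people its mutation predisposes to myeloid leukaemia. The mutant allele and the number of embryos per library are not given in the sources used here, and ddx41 transcripts were not analysed here.

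In vertebrates the erythroid programme is built around Gata1, a zinc finger factor that binds DNA. Gata1 acts with its cofactor Zfpm1 (also called Fog1) and in a complex that joins Tal1, an E protein, the bridging protein Lmo2 and Ldb1. Klf1 acts on globin and haem genes, and Nfe2 pairs with small Maf proteins. Gfi1b is a transcriptional repressor at work within the erythroid and thrombocyte lineages. Gata1 and Spi1, the latter a myeloid factor, oppose each other when progenitors choose a lineage. Fli1 is an Ets factor of endothelium and of megakaryocytes, the mammalian counterpart of thrombocytes.

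Libraries held 14577735 to 17639699 counts on genes, and each mutant library was shallower than each wildtype library. The mitochondrial genome took 26.5% to 30.7% of mutant counts and 21.3% to 27.6% of wildtype counts. All 10 regulators passed the filter on low counts. Their counts ranged from 32 (nfe2 in wildtype replicate 1) to 8392 (hemgn in mutant replicate 2), so counting error was small beside the differences between libraries. Whether replicates stem from separate clutches is not stated, so the p-values reflect no more than the variation among these samples, which may be technical.

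The genes that rose in the mutants were klf1, gata1a, hemgn, nfe2, epor, tal1 and gfi1b, by 4.0-fold to 16.9-fold. The values for lmo2 and zfpm1 were 3.46-fold and 1.84-fold higher, and that of fli1a was 1.83-fold lower, without passing the test. In bulk RNA of sorted cells, more cells of a type and more RNA per cell cannot be told apart. Of the 10, 7 were thus higher and 0 lower at an adjusted p below 0.05 by edgeR, where 3.34% of the 18722 genes tested were higher and 1.99% lower. At an unadjusted p below 0.05, 8 were higher, where 11.9% of all tested genes were, and 1, fli1a, was lower, close to the 10.9% of all tested genes. The median log2 fold change of the 10 genes was 2.72, against 0.02 over all genes tested. Mutant and wildtype ranges were separate for 7 genes, all higher in mutants, where this held for 15.3% of all tested genes, and for 13.4% in the lower direction. Without wildtype replicate 1 the genes called were gata1a, klf1, hemgn and epor, 4 in all, and the number was 0 when replicate 2 or replicate 3 of either genotype was left out, although 8 or 9 genes still had an unadjusted p below 0.05 and no fold change turned its direction. Calls fell over all genes too, from 625 higher in the main fit to 146 without mutant replicate 2 and 103 without mutant replicate 3. Without wildtype replicate 2 or 3, 51 or 217 of all tested genes were higher. DESeq2, which called 7.39% of its genes higher and 6.65% lower, and limma voom with sample weights, with 7.8% and 7.22%, each called 8 of the 10 higher and 0 lower.

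**Figure D1:**
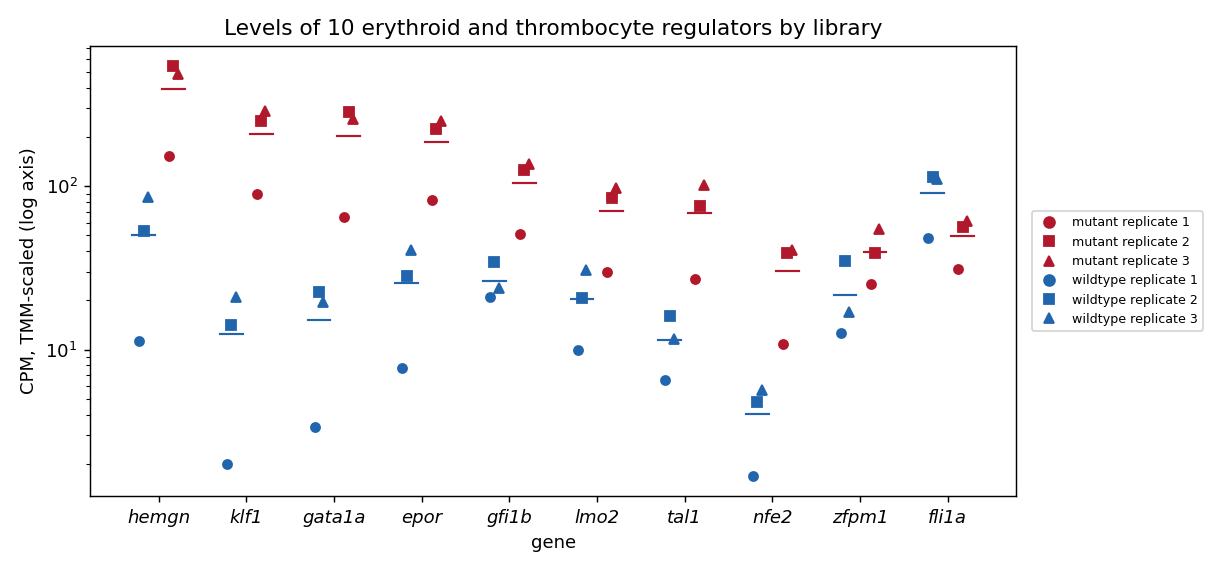
CPM (TMM-scaled, log axis) of each regulator in every library, with red for mutant and blue for wildtype, a shape per replicate number, and a bar at the mean of 3 libraries. For gata1a the 3 mutant libraries (65.3 to 285 CPM) sit above the 3 wildtype libraries (3.38 to 22.5 CPM), while for fli1a the order is turned and the ranges overlap.

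Levels are given in CPM, the share of a library's TMM-scaled total. For gata1a (ENSDARG00000013477, chromosome 11, 25174298 to 25181240, minus strand, GRCz10), the zinc finger factor at the head of the erythroid programme, mutant replicates 1 to 3 stood at 65.3, 285 and 258 CPM. Wildtype replicates 1 to 3 stood at 3.38, 22.5 and 19.5 CPM. The lowest mutant library was 2.90-fold above the highest wildtype library. Its log2 fold change was 3.75 ± 0.75 (SE; edgeR adjusted p = 0.0263), a 13.4-fold rise that ranked 144 among the 18722 genes.

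The largest change among the 10 was that of klf1 (ENSDARG00000017400, chromosome 6, 7894004 to 7905419, plus strand), whose product activates globin and haem genes. Mutant libraries held 90.3, 252 and 287 CPM of klf1 and wildtype libraries 2.01, 14.2 and 21.1 CPM. Every mutant library was at least 4.29-fold above every wildtype library, the widest gap among the 10 genes. The log2 fold change was 4.08 ± 0.78 (SE; edgeR adjusted p = 0.0228), a 16.9-fold rise at rank 111. Without wildtype replicate 3 it was 4.70 (edgeR adjusted p = 0.0502), and without wildtype replicate 1 it was 3.57.

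Within the complex that Gata1 joins, tal1 (ENSDARG00000019930, chromosome 22, 16509305 to 16519060, plus strand) encodes a helix-loop-helix factor needed for the first blood cells. It stood at 26.9, 75.7 and 102 CPM in mutants and at 6.55, 16.1 and 11.6 CPM in wildtypes. These groups did not overlap, and the log2 fold change was 2.58 ± 0.52 (SE; edgeR adjusted p = 0.0262), a 5.97-fold rise. Its partner lmo2 (ENSDARG00000095019, chromosome 18, 38307869 to 38315657, plus strand), a LIM protein that binds no DNA itself, stood at 29.8, 85.2 and 97.5 CPM in mutants and at 9.93, 20.6 and 30.9 CPM in wildtypes. Mutant replicate 1 lay just under wildtype replicate 3, so the groups of lmo2 overlapped. The log2 fold change of lmo2 was 1.79 ± 0.52 (SE; edgeR adjusted p = 0.0792). It passed in DESeq2 (adjusted p = 0.00648) and in limma voom (adjusted p = 0.0101), with no filter (edgeR adjusted p = 0.0444) and without mutant replicate 1 (edgeR adjusted p = 0.0163).

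The cofactor gene zfpm1 (ENSDARG00000041572, chromosome 18, 17282120 to 17410236, minus strand) stood at 25.2, 38.8 and 55.1 CPM in mutants and at 12.7, 35 and 17 CPM in wildtypes. Wildtype replicate 2 was above mutant replicate 1 and close to mutant replicate 2. Its log2 fold change was 0.88 ± 0.44 (SE; edgeR adjusted p = 0.27), and it passed in none of the 13 alternative fits. Without wildtype replicate 2 its log2 fold change was 1.41, and without mutant replicate 3 it was 0.58.

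The repressor gene gfi1b (ENSDARG00000079947, chromosome 21, 17243516 to 17259903, minus strand) stood at 51.2, 127 and 138 CPM in mutants and at 20.9, 34.3 and 23.7 CPM in wildtypes. Its wildtype libraries were the most alike among the 10 genes, with a highest to lowest ratio of 1.64. The log2 fold change was 2.0 ± 0.40 (SE; edgeR adjusted p = 0.0256). The leucine zipper gene nfe2 (ENSDARG00000020606, chromosome 23, 36212611 to 36217549, minus strand), known in mammals for platelet release, stood at 10.9, 38.9 and 40.9 CPM in mutants and at 1.69, 4.78 and 5.69 CPM in wildtypes. Every mutant library of nfe2 was at least 1.91-fold above every wildtype library. The log2 fold change of nfe2 was 2.90 ± 0.61 (SE; edgeR adjusted p = 0.0296).

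The regulator with the highest level per exon length in mutants was hemgn (ENSDARG00000096667, chromosome 1, 25974158 to 25977496, plus strand), which encodes hemogen, a nuclear protein of blood cells. Mutant libraries held 153, 542 and 488 CPM of hemgn and wildtype libraries 11.4, 53.4 and 86.3 CPM. The log2 fold change was 2.97 ± 0.71 (SE; edgeR adjusted p = 0.0459), with no overlap of the groups. Without wildtype replicate 3 it was 3.61 (edgeR adjusted p = 0.0646). Its exons share 379 bases with trmo on the opposite strand, and the counting command sets no strand option, so its level is uncertain over that stretch. None of the other 9 genes shares exon bases with another gene of the annotation.

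The receptor gene epor (ENSDARG00000090834, chromosome 3, 14394007 to 14414315, plus strand) binds erythropoietin, the hormone that keeps red cell precursors alive. It stood at 82.8, 225 and 250.0 CPM in mutants and at 7.71, 28.2 and 40.6 CPM in wildtypes. The lowest mutant library was 2.04-fold above the highest wildtype library. The log2 fold change of epor was 2.87 ± 0.61 (SE; edgeR adjusted p = 0.0312), a 7.29-fold rise.

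The Ets factor gene fli1a (ENSDARG00000054632, chromosome 18, 48429318 to 48493178, plus strand; FLI1 in the name table) was the only one of the 10 with a negative fold change. It stood at 31.1, 56.1 and 61.0 CPM in mutants and at 48.0, 114 and 110 CPM in wildtypes. Wildtype replicate 1 lay among the mutant libraries and the other wildtype libraries above them. Its log2 fold change was -0.88 ± 0.39 (SE; edgeR adjusted p = 0.218), between -1.18 without wildtype replicate 1 and -0.64 without mutant replicate 1, and it passed in none of the 13 alternative fits.

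**Figure D2:**
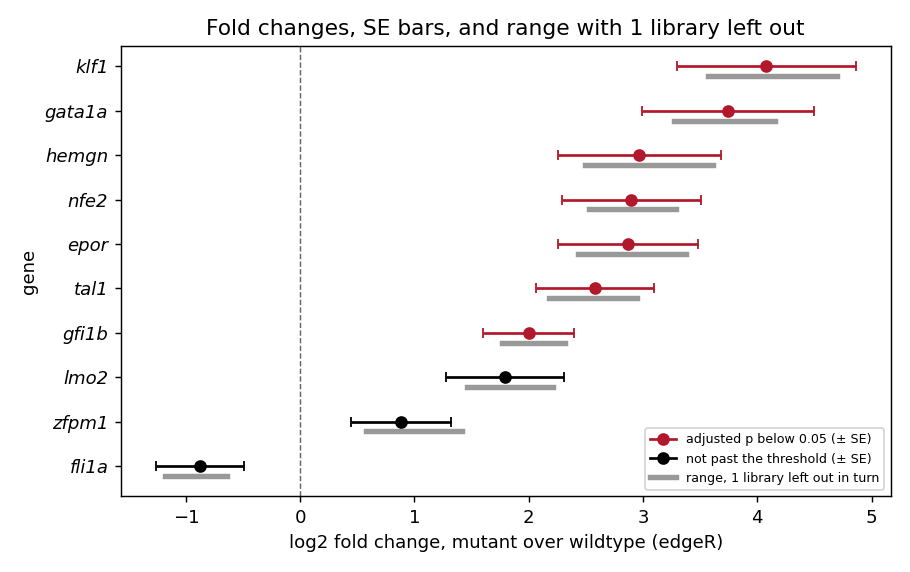
Log2 fold change of each regulator, mutant over wildtype, with SE bars (red, adjusted p below 0.05; black, not past the threshold), above a grey bar that spans the values with each library left out in turn. All grey bars stay on their side of 0, from 3.57 to 4.70 for klf1 to -1.18 to -0.64 for fli1a.

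The spread within each genotype was shared by the 10 genes. All 10 were lowest in mutant replicate 1 among mutants and in wildtype replicate 1 among wildtypes, the fli1a level included. Among mutants 8 were highest in replicate 3 and 2, gata1a and hemgn, in replicate 2. Within the wildtypes klf1 varied most, with a highest to lowest ratio of 10.5, followed by hemgn at 7.60 and gata1a at 6.67. Within the mutants this ratio was between 1.96 for fli1a and 4.36 for gata1a. The summed level of the 10 genes was 566, 1725 and 1778 CPM in mutants and 124, 343 and 367 CPM in wildtypes. This sum averaged 1356 ± 685 CPM in mutants against 278 ± 134 CPM in wildtypes (SD, n = 3), a 4.88-fold difference. As fli1a was the only gene of the 10 with a negative fold change, leaving it out could only raise this, here to 6.98-fold. The averages were then 1307 ± 669 CPM in mutants and 187 ± 97.1 CPM in wildtypes. Both sums gave p = 0.1 by a two-sided exact permutation test, which cannot go lower with 3 libraries a side. The sum without fli1a is not a separate comparison, since all its genes are in the full sum.

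Levels of different genes were compared per kilobase of exon, as CPM per kb. In wildtypes fli1a led with 28.3 ± 11.5 CPM per kb (SD, n = 3), ahead of hemgn at 20.6 ± 15.4, gfi1b at 20.1 ± 5.37 and lmo2 at 11.3 ± 5.80. Then came gata1a at 7.22, epor at 5.29, zfpm1 at 5.11, klf1 at 4.92, tal1 at 4.32 and nfe2 at 2.24 CPM per kb. In mutants hemgn led with 162 ± 86.5 CPM per kb, followed by gata1a at 96.8 ± 57.2, klf1 at 83.1 ± 41.6 and gfi1b at 80.3 ± 36.0. Then came lmo2 at 39.2, epor at 38.6, tal1 at 25.8, nfe2 at 16.7, fli1a at 15.4 and zfpm1 at 9.41 CPM per kb. In neither genotype were the ranges of any neighbours in the order separate. Within single libraries, the order of gfi1b above lmo2, and of tal1 above nfe2, held in all 3 libraries of each genotype, while hemgn was above gfi1b in 1 of 3 wildtype libraries. By the order of means, from wildtype to mutant, fli1a went from position 1 to 9, klf1 from 8 to 3 and gata1a from 5 to 2. Single libraries did not all hold these positions. Among wildtypes fli1a was above hemgn in 2 of 3 libraries and klf1 above tal1 in 1 of 3. Among mutants gata1a was above klf1 in 2 of 3 libraries. Of all tested genes, 68.5% had a lower level per kb than gata1a in wildtypes and 97.4% in mutants. For fli1a these shares were 91.3% and 82.5%.

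**Figure D3:**
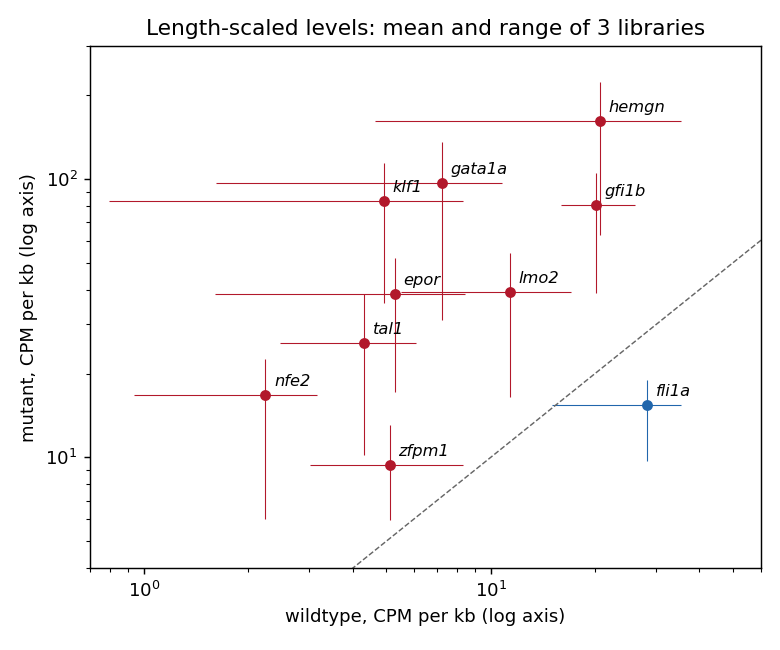
Mean CPM per kb of exon in wildtypes (x, log axis) and mutants (y, log axis), with lines spanning the 3 libraries of each genotype and a dashed line of equal levels. All but 1 gene lie above the line, and fli1a (28.3 in wildtypes, 15.4 in mutants) lies below it.

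To see whether the regulators differed by the same amount, each was divided by gata1a within the same library. The log2 ratio of klf1 to gata1a was 0.47, -0.18 and 0.15 in mutants and -0.75, -0.66 and 0.11 in wildtypes. These groups overlapped, and the difference of 0.58 gave a two-sided exact permutation p = 0.2 (adjusted p = 0.2 over 9 genes). The ratio of epor to gata1a overlapped too, with a difference of -0.87 (exact permutation p = 0.2). The epor groups were separate without wildtype replicate 2 (-1.14, exact permutation p = 0.1) and with klf1 in place of gata1a as the reference (-1.45, exact permutation p = 0.1). For the other 7 genes every mutant ratio lay below every wildtype ratio, with exact permutation p = 0.1, the smallest possible, and adjusted p = 0.129. The differences were -0.69 for hemgn, -1.04 for nfe2, -1.42 for tal1, -1.98 for gfi1b, -2.12 for lmo2, -2.94 for zfpm1 and -4.72 for fli1a. Only klf1 had a larger fold change than gata1a, so the negative sign for the other genes follows from the choice of reference. Leaving out wildtype replicate 1 moved those of gfi1b and tal1 to -1.25 and -0.90. In wildtypes fli1a exceeded gata1a in counts by 3.83, 2.33 and 2.50 on the log2 scale, and in mutants it stood at -1.07, -2.34 and -2.08. With 3 libraries each no such difference can pass a threshold of 0.05.

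**Figure D4:**
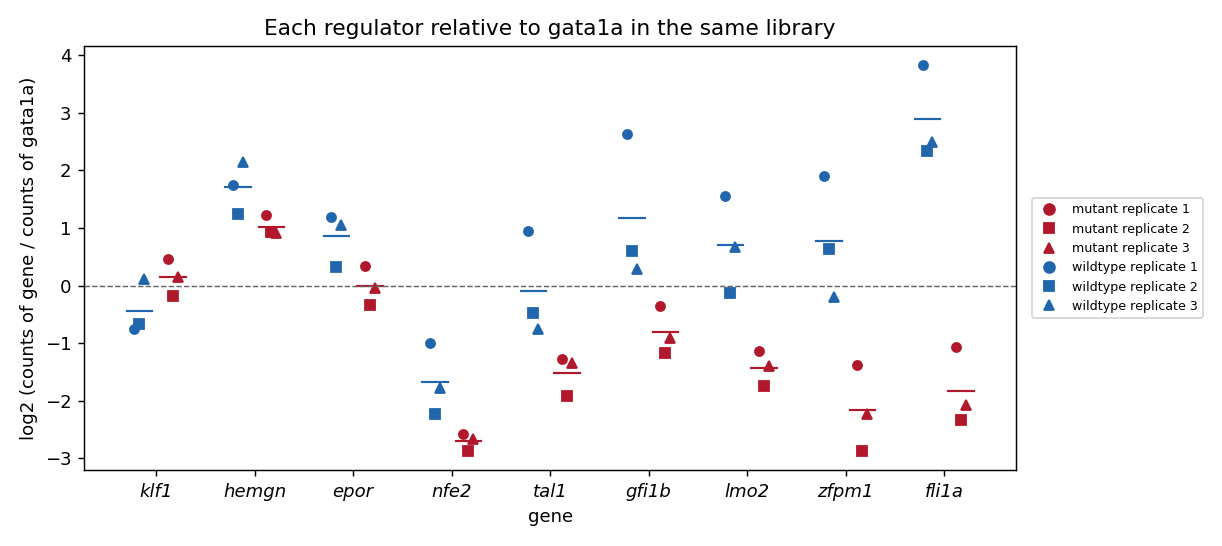
Log2 of each regulator's counts over gata1a counts in the same library, with bars at the mean of 3 libraries (red, mutant; blue, wildtype). Ratios of klf1 and epor overlap between genotypes, while those of fli1a run from 2.33 to 3.83 in wildtypes and from -2.34 to -1.07 in mutants.

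Genes of mature red cell function were also higher in mutants. Of 23 tested haem, iron, membrane and skeleton genes 19 rose and 0 fell (edgeR; 0 lower at an unadjusted p below 0.05, by DESeq2 or by limma voom), with a median log2 fold change of 3.03. DESeq2 and limma voom each called 20 higher. The haem pathway gene alas2 rose 12.7-fold, from 79.1 ± 62.9 to 1006 ± 507 CPM (SD, 3 libraries each; edgeR adjusted p = 0.0281). The biliverdin reductase gene blvrb was 10.7-fold higher, the translocator protein gene tspo 7.99-fold, and the skeleton genes DMTN and add2 8.24-fold and 8.34-fold (edgeR adjusted p = 0.00967 to 0.0125). Leaving out mutant replicate 2 or 3 brought the number higher to 4 or 3, and leaving out wildtype replicate 1, 2 or 3 brought it to 16, 0 or 6. Summed, these genes held 3918, 12374 and 12436 CPM in mutants and 578, 1231 and 1617 CPM in wildtypes, lowest in the same libraries as the regulators.

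A comparison chosen after the values were seen set each regulator against this sum. Its permutation tests were run on log2 ratios, not on the values per 1000. Per 1000 counts of the 23 genes, epor took 19.8 ± 1.5 in mutants and 20.4 ± 6.26 in wildtypes, and hemgn 40.7 ± 2.72 and 38.8 ± 17.3 (SD, n = 3; two-sided exact permutation p = 1 and 0.9). For klf1 the values were 23.1, 20.3 and 23.1 in mutants and 3.47, 11.5 and 13 in wildtypes, with every mutant library higher (exact permutation p = 0.1, adjusted p = 0.2 over 10 genes). For lmo2 they were 7.60, 6.89 and 7.84 in mutants and 17.2, 16.7 and 19.1 in wildtypes, with every mutant library lower and little spread within either genotype (exact permutation p = 0.1). Ratios of gfi1b, zfpm1 and fli1a were also lower in every mutant library, with fli1a at 5.79 ± 1.87 in mutants and 81.2 ± 12.1 in wildtypes. Those of gata1a, tal1 and nfe2 overlapped.

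Partner proteins of the regulators were described from a list of 30 tested genes that held Ldb1, E protein, small Maf and corepressor genes. By edgeR 0 rose and 0 fell, and the median log2 fold change was -0.26. At an unadjusted p below 0.05, 2 were higher and 3 lower, where 11.9% of all tested genes were higher and 10.9% lower. DESeq2 called 0 higher and 1 lower, and limma voom 2 and 1. Without mutant replicate 1, 2 were higher by edgeR, and without wildtype replicate 1, 1 was lower. The smallest p belonged to CBFB, which encodes the partner of Runx1, with a mutant mean of 50.3 ± 6.76 CPM and a wildtype mean of 108 ± 34.8 CPM (SD, 3 libraries each; edgeR adjusted p = 0.0606). The corepressor gene CBFA2T3 (log2 fold change 1.03 ± 0.39 SE) and bach1a (1.2 ± 0.43), whose mammalian counterpart is a repressor regulated by haem, had positive values and MTA2 (-0.55 ± 0.22), of a histone deacetylase complex, a negative one. The LDB1 genes ENSDARG00000010137 and ENSDARG00000103158 were at -0.48 ± 0.34 and 0.86 ± 0.40, and the E protein genes tcf3a and tcf3b at -0.65 ± 0.29 and 0.39 ± 0.22. The list summed to 1836 ± 205 CPM in mutants against 1900 ± 107 CPM in wildtypes.

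Family members of the 10 genes were described from 29 tested paralogues. Of these klf17, a zinc finger gene close to klf1 that zebrafish express in hatching gland and blood, rose 3.48-fold, from 27.6 ± 4.38 to 96.0 ± 38.5 CPM (SD, n = 3; edgeR adjusted p = 0.0229). This was 1 of 29 called higher by edgeR, close to the 3.34% of all tested genes. None fell by edgeR, with 5 lower at an unadjusted p below 0.05, where 10.9% of all tested genes were lower. DESeq2 and limma voom each called 1 lower, as did edgeR without mutant replicate 1. The klf17 call was lost when replicate 2 or 3 of either genotype was left out, where 0 paralogues passed. The paralogue of fli1a, named fli1rs in the table (fli1b), was at 44.5, 48.9 and 46.7 CPM in mutants and at 46.6, 79.4 and 84.1 CPM in wildtypes (edgeR adjusted p = 0.257), with wildtype replicate 1 among the mutant libraries, as for fli1a. Other family genes with small p were LMO4 (ENSDARG00000054749, -1.29 ± 0.45 SE), klf2a (-1.30 ± 0.46) and ETS1 (-0.97 ± 0.35). The progenitor gene gata2b was at -2.03 ± 0.80 (edgeR adjusted p = 0.174), with 0.913 CPM in mutants and 3.77 CPM in wildtypes. A second gata1 gene of the zebrafish, gata1b (ENSDARG00000059130), was named after its values were seen. It stood at 3.18, 2.78 and 1.08 CPM in mutants and at 6.60, 28.2 and 6.47 CPM in wildtypes, the opposite order to gata1a, with no overlap and a log2 fold change of -2.55 ± 0.71 (SE; edgeR adjusted p = 0.0736).

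Of 19 tested genes around the erythropoietin receptor, 0 rose and 0 fell by edgeR. At an unadjusted p below 0.05, 1 was higher and 2 lower, where 11.9% of all tested genes were higher and 10.9% lower. DESeq2 called 0 higher and 1 lower, and limma voom 1 and 3. Without mutant replicate 1, edgeR called 1 higher and 2 lower. The median log2 fold change was -0.22, beside 2.87 for epor itself. The kinase gene jak2a, which epor signals through, had a mutant mean of 34.7 ± 17.8 CPM and a wildtype mean of 13 ± 5.97 CPM (SD, 3 libraries each; edgeR adjusted p = 0.145). The transcription factor gene stat5b was at -0.54 ± 0.23 (SE) and the feedback inhibitor gene SOCS1 at -0.95 ± 0.48 on the log2 scale. The thrombopoietin receptor gene mpl, related to epor and used by thrombocytes and stem cells, was at 0.635, 4.85 and 1.53 CPM in mutants and at 8.50, 23.6 and 13.3 CPM in wildtypes. These groups of mpl did not overlap, at a log2 fold change of -2.68 ± 0.73 (SE; edgeR adjusted p = 0.0688), opposite in sign to that of epor.

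Genes of thrombocyte function, the other lineage of gfi1b and nfe2, had calls in both directions. Of 12 tested, gp9, tubb1 and GP1BB rose and RAB27B fell, and 8 did not pass (edgeR, median log2 fold change -0.80). Over all tested genes 3.34% were higher and 1.99% lower. The counts at an unadjusted p below 0.05 were 3 higher and 6 lower, where 11.9% and 10.9% of all tested genes were. Mutant and wildtype ranges were separate for 3 genes in the higher and 5 in the lower direction, against 15.3% and 13.4% of all tested genes. The glycoprotein genes gp9 and GP1BB, of the von Willebrand factor receptor, were 9.54-fold and 7.50-fold higher, and the platelet tubulin gene tubb1 9.30-fold (edgeR adjusted p = 0.0109, 0.0262 and 0.0244). The GTPase gene RAB27B was at 1.67, 0.969 and 0.957 CPM in mutants and at 50.9, 13.1 and 3.93 CPM in wildtypes (edgeR adjusted p = 0.0286). Among wildtypes RAB27B was highest in replicate 1, as was the neuron gene VSX1, at 34.6, 2.11 and 0.879 CPM. Whether this pattern had a shared source was not tested. Leaving out mutant replicate 2 or wildtype replicate 3 left 1 higher, leaving out wildtype replicate 1 left 2, and leaving out mutant replicate 3 or wildtype replicate 2 left 0. RAB27B lost its call without wildtype replicate 1, and without replicate 2 of either genotype or mutant replicate 3, where 0 were lower, while 3 were lower without mutant replicate 1. DESeq2 called 3 higher and 5 lower, and limma voom 3 and 4. The gene behind the reporter, itga2b, was low in every library, at 2.62, 4.33 and 6.44 CPM in mutants and at 3.22, 1.18 and 1.60 CPM in wildtypes (edgeR adjusted p = 0.326).

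**Figure D5:**
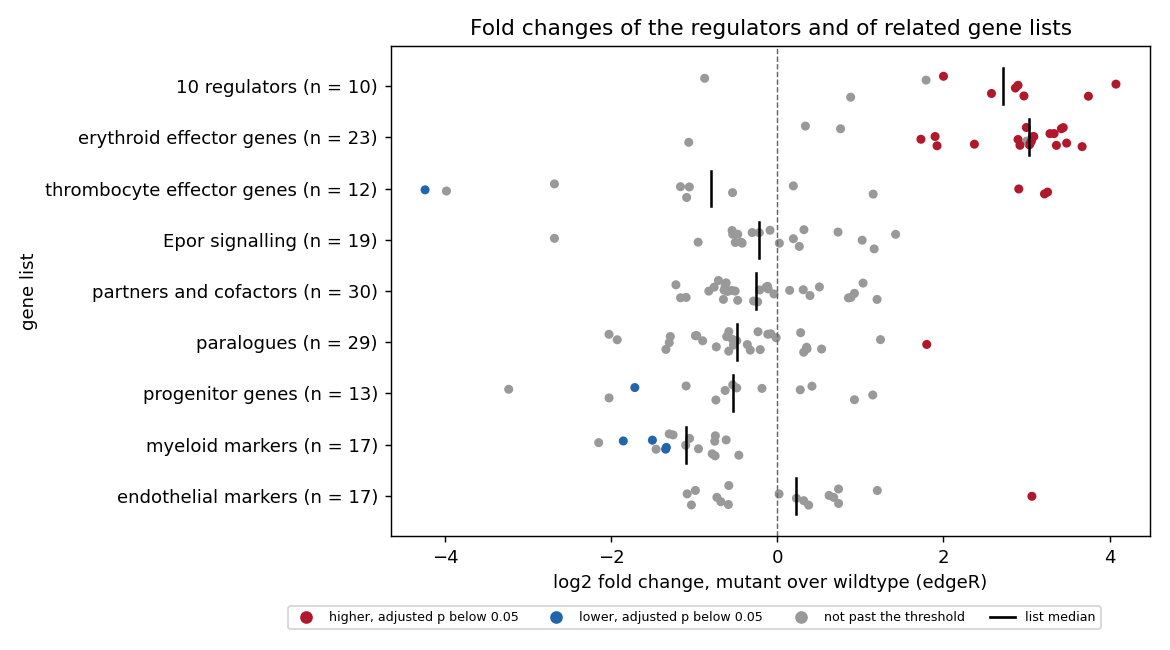
Log2 fold changes (mutant over wildtype) of single genes, as points by list, with red for higher and blue for lower (adjusted p below 0.05), grey for the rest and a black line at the list median. The 10 regulators (median 2.72) and the red cell genes (median 3.03) lie to the right, the partners (median -0.26) around 0, and all 17 myeloid markers to the left of 0.

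Markers of other cells also differed between the libraries. Of 17 tested myeloid markers 0 were higher (0 also at an unadjusted p below 0.05, by DESeq2 and by limma voom) and 4 lower by edgeR, namely MMP9, ptprc, spi1a and LCP1, and all 17 had negative fold changes, with a median of -1.10. At an unadjusted p below 0.05, 12 were lower, and DESeq2 called 10 lower and limma voom 14. Their sum was 10085, 13653 and 9868 CPM in mutants and 17404, 35072 and 27363 CPM in wildtypes, without overlap, so myeloid transcripts were abundant in both genotypes. Most of this sum was 1 gene, lyz. It averaged 8298 CPM in mutants and 20456 CPM in wildtypes (edgeR adjusted p = 0.0637), where the list averaged 11202 and 26613 CPM. Leaving out mutant replicate 1, 2 or 3 brought the number lower to 6, 0 or 0, and leaving out wildtype replicate 1, 2 or 3 brought it to 7, 0 or 1. The myeloid factor gene SPI1 (ENSDARG00000000767), known for its opposition to Gata1, was at 235, 226 and 223 CPM in mutants and at 360, 413 and 381 CPM in wildtypes (edgeR adjusted p = 0.0801). Counts of gata1a per count of SPI1 were 0.277, 1.26 and 1.16 in mutants and 0.00938, 0.0546 and 0.0512 in wildtypes, a pair named after its values were seen. The part of these cells in the differences of the 10 genes was not tested.

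Endothelial genes bear on fli1a, tal1 and lmo2, which vessels also express. Of 17 tested, stab2, a scavenger receptor gene, rose 8.37-fold (edgeR adjusted p = 0.0263) and 0 fell (0 lower also at an unadjusted p below 0.05, by DESeq2 and by limma voom). Leaving out replicate 2 or 3 of either genotype ended the stab2 call. The list summed to 131 to 187 CPM in mutants and 112 to 198 CPM in wildtypes, so the ranges overlapped. ERG, a close relative of fli1a, was at -0.99 ± 0.47 (SE) and tek, an angiopoietin receptor gene, at -1.03 ± 0.63 on the log2 scale, neither past the threshold. Fold changes of kdrl and cdh5, which define vessel cells, were 0.38 ± 0.53 and 0.74 ± 0.64 on the log2 scale.

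Among 13 tested progenitor genes csf1rb fell (log2 fold change -1.72 ± 0.41 SE; edgeR adjusted p = 0.0464) and 0 rose (0 higher at an unadjusted p below 0.05, by DESeq2 and by limma voom). At an unadjusted p below 0.05, 4 were lower, where 10.9% of all tested genes were, with 3 lower by DESeq2 and 4 by limma voom. Leaving out replicate 2 or 3 of either genotype ended the csf1rb call, and leaving out replicate 1 of either gave 2 lower. MYB averaged 95.4 ± 26.4 CPM in mutants against 159 ± 58.7 CPM in wildtypes, and RUNX1, a defining factor of blood stem cells, was low at 1.68 and 2.60 CPM. ANGPT1 was at 0.398 and 3.73 CPM (edgeR adjusted p = 0.067). Of 8 lens and neuron genes cryba1b, crygm2d1 and lim2.3 rose and NEUROD1, VSX1 and ELAVL3 fell by edgeR, with 0 calls without wildtype replicate 2 and 1 without mutant replicate 3. In wildtypes crygm2d1 stood at 0.0528, 0 and 0 CPM and lim2.3 at 0, 0 and 0.103 CPM. NEUROD1, VSX1 and ELAVL3 were each highest in wildtype replicate 1, at 44.6, 34.6 and 186 CPM. Summed, the 8 genes held 125, 45.9 and 93.1 CPM in mutants and 384, 104 and 92.6 CPM in wildtypes. Wildtype replicate 1 was also the wildtype library in which each regulator was lowest. Of 5 muscle and pronephros genes, among them myhz2, CDH17, ckma and atp1a1a.4, 0 passed by edgeR. With 1 muscle or pronephros gene higher by DESeq2 and 1 lower by limma voom, these lists summed to at most 384 CPM in any library.

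The genes most like klf1 over the 6 libraries, of 8799 with a symbol and a mean log2 CPM of at least 3, were the globin gene hbbe3 (Pearson r = 0.999 of log2 CPM, n = 6 libraries), ST3GAL3 (0.999), SASS6 (0.999), the transferrin receptor gene tfr1a (0.999) and the carbonic anhydrase gene cahz (0.999). In all 797 genes had r of at least 0.9 with klf1, and ST3GAL3 and SASS6 did not pass the test between genotypes (edgeR adjusted p = 0.131 and 0.0508). Among the 10 regulators r with klf1 was 0.996 for epor, 0.991 for hemgn, 0.990 for gata1a and 0.981 for nfe2, down to 0.820 for zfpm1 and -0.22 for fli1a. Most like fli1a were TRRAP (0.998), st8sia6 (0.992), MAP4K5 (0.991), agfg2 (0.990) and ints6 (0.987), none of which passed the test between genotypes. These correlations describe 6 libraries, on log2 CPM that is already scaled to library size. All genes of a library come from the same mix of cells, and the part of that mix in r was not tested.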

How the data were processed

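Raw fragment counts per gene were deposited, which the authors made with featureCounts 1.5.0-p1, per the file headers, from Ensembl release 85 gene models (GRCz10), keeping pairs with both mates mapped, no chimeric pairs, and setting no strand option. STAR 2.4.2a, Trim Galore, Picard, DESeq2 and Cufflinks 2.2.1 are named without roles, per the submitters' processing notes. The authors' table also gives the exon length used for CPM per kb.

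Differences were tested in edgeR 4.0.16 (R 4.3.3) using TMM, filterByExpr (minimum count 10, minimum total 15), a genotype term and the two-sided quasi-likelihood F test, adjusted by Benjamini-Hochberg over 18722 genes. SE is the log2 fold change over the square root of F. Ratios within a library were compared on the log2 scale by exact permutation.

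List entries were matched by symbol (153 of 222), RefSeq synonym (6) or orthologue symbol (31), and 17 were ambiguous and 15 unmatched; fli1a was matched through a RefSeq synonym. Symbols in capitals are orthologue symbols. The 10 genes and the lists were chosen with earlier results of these data known. Beyond the 10, the rule named the 4 genes of smallest p per list and the 5 most like klf1 and fli1a. The genes gata1b, SPI1, lyz, alas2, itga2b, kdrl, cdh5, KIT, SOX7, MYB, RUNX1, VSX1, ELAVL3, the LDB1 and tcf3 genes were named after values were seen. Library pairs differed beyond counting noise (chi-square per degree of freedom at least 18.3). Code was tested on simulated data. Alternatives used DESeq2 1.42.0 and limma 3.58.1.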

Additional observations from a re-analysis of the deposited data

How the results depend on the processing

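The 10 fold changes kept their direction in all 13 alternative fits: RLE size factors, no filter, at least 1 CPM in 3 libraries, DESeq2, limma voom (sample weights), a replicate block, library sizes without mitochondrial genes, and each library left out in turn. Regulators higher numbered 7 or 8 in the first 7 of these and 0 to 8 with a library left out. Same-numbered libraries correlated at 0.224, 0.155 and 0.0875 in their deviations from the genotype means. All other pairs of a mutant and a wildtype library were lower, from -0.186 to 0.0629. Whether equal numbers mark paired samples is not stated, so the main fit did not pair them, and a shared replicate effect was not tested. With the replicate block 8 regulators were higher, lmo2 among them (edgeR adjusted p = 0.00449), and 16 list genes lower, 7 of them myeloid markers. Of 163 list genes outside the 10, 27 were higher and 9 lower, against 22 lower by DESeq2 and 27 lower by limma voom, with 0 to 31 higher and 0 to 16 lower when a library was left out. A further reference, the summed red cell genes, was added after the data were seen. Against it the differences in mean log2 ratio of hemgn and epor turned from negative to 0.19 and 0.0038. The cause was not tested. Depth did not limit the 10 regulators, whose lowest count in any library was 32. Some list genes were far scarcer, such as VSX1, at 0 CPM in mutant replicates 1 and 2.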

Other observations

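KIT (ENSDARG00000043317), a receptor gene of progenitors and pigment cells, stood at 67.9, 6.98 and 6.89 CPM in mutant replicates 1 to 3 and at 35.6, 39.2 and 43.5 CPM in wildtypes. It was thus highest in the mutant library in which all 10 regulators were lowest among mutants. This pattern was not particular to KIT. Mutant replicates 1 to 3 held 38.3, 9.30 and 6.76 CPM of the endothelial marker SOX7 and 36.0, 2.46 and 3.06 CPM of CDH17. The muscle and pronephros list, which includes CDH17, summed to 84.5, 21.2 and 41.9 CPM in these libraries. Its gene myhz2 had another order, at 10.2, 4.33 and 18.6 CPM. How many genes shared the pattern was not counted, and its source was not tested.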
